A study of Mus musculus with 4 samples.

Results

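The TRBV13 family of T cell receptor beta chain (TCRβ) variable segments has 3 members in the mouse, TRBV13-1, TRBV13-2 and TRBV13-3, together named V beta 8. A clone was counted as a member when TRBV13-1, TRBV13-2 or TRBV13-3 was the first V segment listed for it, with the allele number removed. By this rule 103984 of the 382531 TCRβ clones in 4 libraries belonged to the family, 35503 with TRBV13-1, 27339 with TRBV13-2 and 41142 with TRBV13-3. The tables held 24 TRBV segments in all. The 4 libraries came from total splenic CD4 T cells of wild type (WT) and Tet2/3 DKO mice, 2 libraries each, labelled as biological replicates, at a mean age of 25 days. Live TCRβ+ CD4+ cells were sorted without CD25+ cells and without cells that bind the αGalCer-loaded CD1d tetramer. Tet2/3 DKO mice were Tet2-/- Tet3 flx/flx CD4Cre: Tet2 was lost in every cell, and Tet3 was deleted by Cre under the CD4 promoter, so that both genes were absent only from the double-positive thymocyte stage onwards. The study used these mice to compare the receptor repertoire of CD4 T cells with and without TET2 and TET3.

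A TCRβ chain is made in developing thymocytes by joining a V, a D and a J segment. Bases are trimmed from the segment ends and others are added at the joints, and the resulting CDR3 loop is the part that mainly meets the peptide, while CDR1 and CDR2 are encoded by the V segment itself and mainly meet the MHC molecule. V beta 8 is among the most used families in the mouse. V beta 8 chains are also the most frequent partners of the invariant TCRα chain of iNKT cells, the cells that the CD1d tetramer gate was set to remove.

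In RefSeq's annotation of GRCm38.p6, the assembly named mm10 in the labels, the segments lie on chromosome 6 within 14550 bases. Trbv13-1 (V beta 8.3) is at chr6:41116036-41116468, Trbv13-2 (V beta 8.2) at chr6:41121396-41121832 and Trbv13-3 (V beta 8.1) at chr6:41130147-41130585. Trbv12-1 and Trbv12-2 (V beta 5.2 and 5.1) alternate with them, at chr6:41113567-41114067 and chr6:41118864-41119364. The ends of Trbv13-1, Trbv13-2 and Trbv13-3 are 416732, 411368 and 402615 bases before Trbd1, the nearer D segment.

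The V regions are shown because the members are told apart by them. Each is the most abundant FR1 to FR3 sequence of the member in the clone tables, followed by the bases of the CDR3 that the untrimmed V segment encodes. It is written 5′ to 3′ in the direction of transcription, with CDR1, CDR2 and the V part of the CDR3 in capitals.
TRBV13-1: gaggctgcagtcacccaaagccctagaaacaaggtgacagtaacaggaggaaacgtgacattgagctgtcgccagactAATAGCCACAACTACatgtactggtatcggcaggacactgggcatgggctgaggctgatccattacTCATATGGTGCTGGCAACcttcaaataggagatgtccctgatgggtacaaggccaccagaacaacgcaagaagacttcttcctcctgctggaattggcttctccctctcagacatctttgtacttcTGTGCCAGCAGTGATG
TRBV13-2: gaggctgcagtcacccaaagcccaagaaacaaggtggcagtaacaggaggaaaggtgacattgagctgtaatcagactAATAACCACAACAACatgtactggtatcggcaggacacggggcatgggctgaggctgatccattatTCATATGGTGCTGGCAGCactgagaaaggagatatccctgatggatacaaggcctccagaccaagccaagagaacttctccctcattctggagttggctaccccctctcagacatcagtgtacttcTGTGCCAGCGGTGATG
TRBV13-3: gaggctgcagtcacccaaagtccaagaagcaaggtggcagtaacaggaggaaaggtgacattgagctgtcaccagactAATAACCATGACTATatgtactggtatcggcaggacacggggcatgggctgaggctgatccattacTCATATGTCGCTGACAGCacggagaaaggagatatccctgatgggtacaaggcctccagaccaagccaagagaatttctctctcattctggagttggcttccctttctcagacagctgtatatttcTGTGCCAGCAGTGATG

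From FR1 to FR3, over 270 bases, TRBV13-2 and TRBV13-3 were 91.5% identical (23 differences) and TRBV13-1 and TRBV13-2 were 88.1% identical (32 differences). TRBV13-1 and TRBV13-3 were 84.8% identical, with 41 differences. FR3 held most of the differences in the pairs with TRBV13-1, 21 against TRBV13-2 and 26 against TRBV13-3. CDR1 reads NSHNY in TRBV13-1, NNHNN in TRBV13-2 and NNHDY in TRBV13-3, and CDR2 reads SYGAGN, SYGAGS and SYVADS. The V part of the CDR3 was 16 bases long in each member. It was the same in TRBV13-1 and TRBV13-3, where it encodes CASSD, and differed at 1 base in TRBV13-2, where it encodes CASGD. The V call was seldom ambiguous, since reads of clones with more than 1 listed V segment were 0.0226% to 0.187% of a member's reads. Reads that carried the CDR1 or CDR2 of another member were 0.117% to 0.39%.

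TRBV13 segments made up 26.2% to 28.9% of the TCRβ reads of a library, and no member differed between the genotypes by more than the libraries of a genotype differed from each other. The libraries held 365421 (WT replicate 1), 454098 (WT replicate 2), 409444 (Tet2/3 DKO replicate 1) and 569678 (Tet2/3 DKO replicate 2) TCRβ reads. TRBV13-1 had 11.02% and 10.1% of the WT reads, replicate 1 first, and 10.8% and 10.3% of the Tet2/3 DKO reads. TRBV13-2 had 6.42% and 6.79% in WT mice, with 6.45% and 6.52% for Tet2/3 DKO. The shares of these segments overlapped between the genotypes. TRBV13-3 had 10.8% and 11.9% in WT mice, with 11.4% and 9.32% for Tet2/3 DKO, so that Tet2/3 DKO replicate 2 was the lowest and the groups overlapped again. The groups did not overlap for 0 of the 3 members, against a background of 29.2% of all segments. The 95% Wilson intervals of these shares were 0.0641 to 0.102 percentage points wide on either side, which covers counting error only, because the reads are PCR copies without molecular identifiers.

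**Figure D1:**
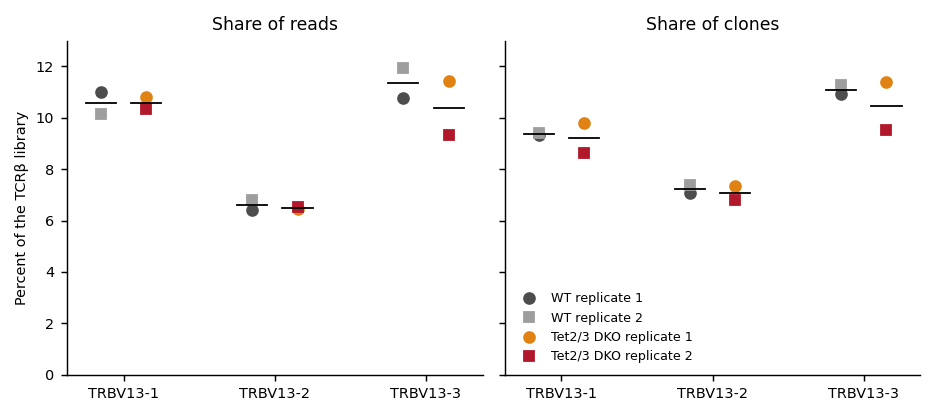
Each point is a library, placed by the percent of its TCRβ reads (left) or clones (right) that use the segment named on the horizontal axis, and bars mark the mean of each genotype (n = 2). The WT and Tet2/3 DKO points overlap for the reads of all 3 segments, and TRBV13-2 lies below the others in every library.

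Averaged over the 4 libraries, TRBV13-3 (10.9% ± 1.13, SD, n = 4) and TRBV13-1 (10.6% ± 0.41) ranked 3 and 4 among the 24 segments, and their order differed between libraries. TRBV13-2 ranked 6, with 6.55% ± 0.17. The neighbours TRBV12-1 and TRBV12-2, which alternate with the TRBV13 segments on the chromosome, had 1.38% ± 0.43 and 1.36% ± 0.58. Reads were not scaled by length, since the 5′ RACE reads start at the transcript end and cover the V region of each segment. By clones, each counted once, the members held 9.32% to 9.79% (TRBV13-1), 7.06% to 7.37% (TRBV13-2) and 10.9% to 11.4% (TRBV13-3) in the libraries other than Tet2/3 DKO replicate 2. In Tet2/3 DKO replicate 2 they held 8.64%, 6.82% and 9.53% of the clones, the lowest value for each member.

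The whole family had 28.2% and 28.9% of the reads in WT mice, with 28.7% and 26.2% for Tet2/3 DKO. The means were 28.5% ± 0.45 and 27.4% ± 1.77 (SD, n = 2 each), a log2 ratio of -0.06 (exact two-sided permutation test, p = 0.667). With 2 libraries against 2 this test cannot give a p below 0.333. Over all TRBV segments, the quasi-likelihood test of edgeR, adjusted by the Benjamini-Hochberg method, called 0 of the 3 members, against a background of 0% higher and 0% lower among the 24 segments tested. At an unadjusted p under 0.05 it called 3 segments, none of them a TRBV13 segment. DESeq2 called 3 of the 24 segments and likewise no member. The log2 ratio of Tet2/3 DKO over WT was 0.002 ± 0.10 (SE) for TRBV13-1 (edgeR adjusted p = 0.987), -0.03 ± 0.11 for TRBV13-2 (adjusted p = 0.895) and -0.13 ± 0.12 for TRBV13-3 (adjusted p = 0.626). Without Tet2/3 DKO replicate 1, the value for TRBV13-3 was -0.29, and without Tet2/3 DKO replicate 2 it was 0.007. Its size thus rested on which Tet2/3 DKO library was kept.

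J segments finish the CDR3, and each TRBV13 segment was joined to all 12 TRBJ segments of the tables. Averaged over the 4 libraries, TRBJ2-7 was the most frequent partner of every member and TRBJ1-5 the least frequent. TRBJ2-7 took 25.9%, 23.1%, 21.1% and 21.2% of TRBV13-1 reads in WT replicates 1 and 2 and Tet2/3 DKO replicates 1 and 2. It took 21.5%, 22.2%, 21.9% and 22.6% of TRBV13-2 reads and 18.3%, 19.3%, 20.4% and 22.1% of TRBV13-3 reads in the same order. For TRBV13-1 both Tet2/3 DKO libraries lay below both WT libraries, and for TRBV13-3 both lay above, 2 of the 3 members, against a background of 29.2% of the 24 segments for this J share. With each clone counted once, the TRBV13-1 shares turned to 21.3% and 21.9% in WT mice, with 22.2% and 23.5% for Tet2/3 DKO. The TRBV13-3 shares by clones were 19.7% in each WT library, with 21.1% and 21.6% for Tet2/3 DKO, again higher. As a share of all TCRβ reads, the log2 ratio of Tet2/3 DKO over WT was -0.21 for TRBV13-1 with TRBJ2-7 (edgeR adjusted p = 0.843), from -0.35 without WT replicate 2 to -0.06 without WT replicate 1. It was 0.04 for TRBV13-3 with TRBJ2-7 (edgeR adjusted p = 0.979), where the groups overlapped and the value ran from -0.07 to 0.15 as each library was left out. TRBJ1-5 took 1.75% to 3.17% over all members and libraries. In TRBV13-1 the order differed in single libraries: TRBJ2-5 (25.5%) exceeded TRBJ2-7 in Tet2/3 DKO replicate 2, and TRBJ1-6 in WT replicate 1 (1.98%) and TRBJ1-4 in Tet2/3 DKO replicate 2 (3.05%) were below TRBJ1-5. In TRBV13-2, TRBJ1-6 was slightly below TRBJ1-5 in Tet2/3 DKO replicate 2 (2.34% against 2.35%).

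**Figure D2:**
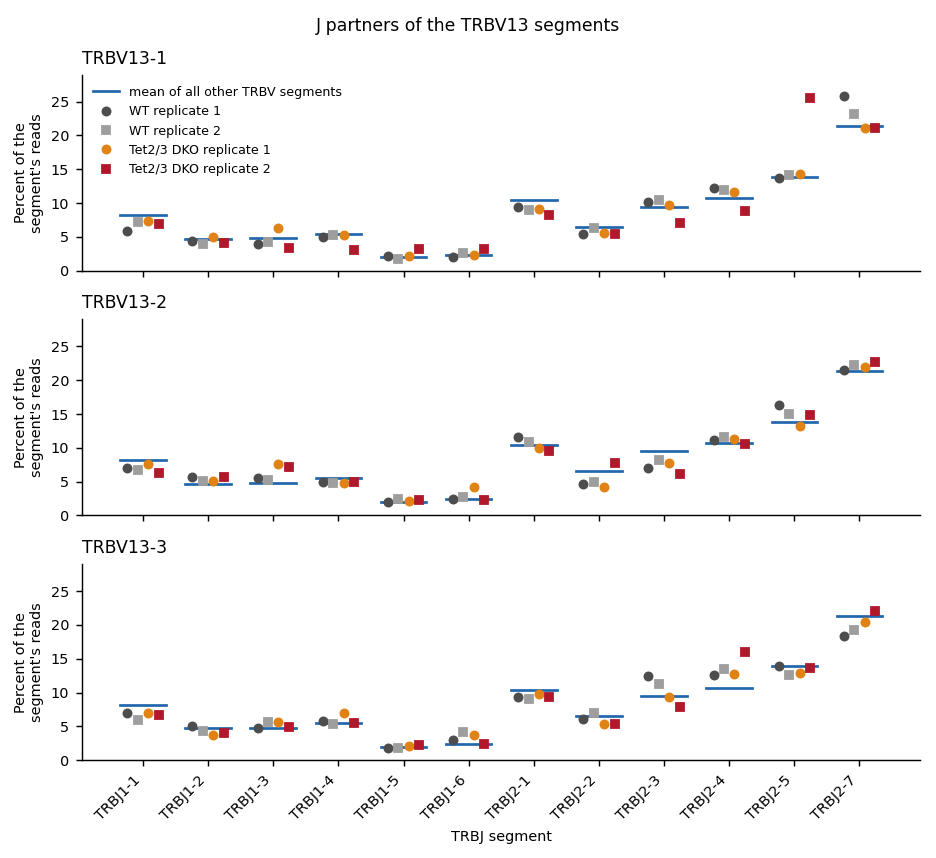
Each panel shows a TRBV13 segment; points give the percent of its reads joined to each TRBJ segment in each library, and blue lines the mean of all other TRBV segments over the 4 libraries. By the mean over libraries TRBJ2-7 is highest and TRBJ1-5 lowest for each member, and TRBV13-1 with TRBJ2-5 stands at 25.5% in Tet2/3 DKO replicate 2, above TRBJ2-7 there, against 13.7% to 14.2% elsewhere.

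Compared with all non-TRBV13 segments of the same library, 8 of the 36 member and J combinations (22.2%) had a higher share in 4 of 4 libraries and 9 (25%) a lower one. The background over all 24 segments, each against the rest of the table, was 17.7% higher and 28.1% lower. With each clone counted once, 13 combinations (36.1%) were higher and 11 (30.6%) lower in 4 of 4 libraries, against a background of 27.8% and 33.3%. TRBJ1-1 was less used by each member, by 1.42 ± 1.00 (SD, n = 4), 1.32 ± 1.07 and 1.58 ± 0.76 percentage points for TRBV13-1, TRBV13-2 and TRBV13-3. The difference had the same sign in 4 of 4 libraries for each. TRBV13-3 used TRBJ2-4 for 13.7% of its reads, 3.003 ± 1.67 points more than the other segments (1.70 ± 0.59 with each clone counted once), and TRBV13-2 used TRBJ2-3 for 7.26%, or 2.24 ± 0.42 points less. These 3 partners were chosen after their values were seen. An exact two-sided sign-flip permutation test over 4 libraries cannot give a p below 0.125, and no combination had an adjusted p below 0.265 by reads or 0.188 by clones.

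The cluster that a J segment belongs to also differed among the members. The TRBJ2 cluster took 76.7% and 75% of TRBV13-1 reads in WT mice, with 71.5% and 76.3% for Tet2/3 DKO. It took 72.3% and 73% of TRBV13-2 reads in WT mice, with 68.5% and 71.2% for Tet2/3 DKO. For TRBV13-3 the values were 72.7% and 72.8% in WT mice, with 70.7% and 74.2% for Tet2/3 DKO. Within each of the 4 libraries TRBV13-1 was above TRBV13-2, by 3.61 ± 1.35 points (SD, n = 4), and above TRBV13-3, by 2.26 ± 1.31 points, each with an exact sign-flip permutation p of 0.125 (adjusted p = 0.246 over 55 tests). Without the leading TRBV13-1 clone of Tet2/3 DKO replicate 2, described with the largest clones, the TRBV13-1 value there was 71.6%, below the 74.2% of TRBV13-3. Among the 3 members, the TRBV13-2 values did not overlap between the genotypes (69.9% ± 1.96 in Tet2/3 DKO against 72.6% ± 0.45 in WT, n = 2 each, exact permutation p = 0.333), and neither did those of the other TRBV segments together (71.6% ± 0.28 against 73.2% ± 1.18). Taken singly, 37.5% of all 24 segments did not overlap in this share. The TRBV13-2 difference was -2.78 points by reads, -1.17 with each clone counted once, where the groups overlapped, and -0.59 without the 10 largest clones of each segment.

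Tested over all 285 V-J pairs with at least 10 reads, 0 of the 36 TRBV13 pairs passed edgeR's adjusted threshold, against a background of 0% in either direction. At an unadjusted p under 0.05, edgeR called 2 TRBV13 pairs, which are named here for that reason, against 10.2% of all pairs (29 of 285). TRBV13-3 with TRBJ2-3 held 1.34% and 1.34% of all TCRβ reads in WT mice, with 1.07% and 0.731% for Tet2/3 DKO, a log2 ratio of -0.58 ± 0.22 (SE, edgeR adjusted p = 0.346). The ratio lay between -0.88, without Tet2/3 DKO replicate 1, and -0.33, without Tet2/3 DKO replicate 2. The largest TRBV13-3 clone of each WT library used this pair, with 0.259% and 0.175% of all TCRβ reads in WT replicates 1 and 2. Those of the Tet2/3 DKO libraries used TRBJ2-4. TRBV13-1 with TRBJ2-5 held 1.51% and 1.44% in WT mice, with 1.54% and 2.64% for Tet2/3 DKO, a log2 ratio of 0.50 ± 0.24 (edgeR adjusted p = 0.480). It was 0.84 without Tet2/3 DKO replicate 1 and 0.06 without Tet2/3 DKO replicate 2. The ratio of this pair was -0.06 with each clone counted once and -0.11 without the 10 largest clones of each segment. In these 2 settings edgeR called 0 TRBV13 pairs at an unadjusted p under 0.05, against 18 of 269 and 19 of 273 pairs in all. By reads, the groups did not overlap in either of the 2 named pairs, as in 11 of the 36 TRBV13 pairs (30.6%), 3 higher and 8 lower in Tet2/3 DKO. The background over all pairs was 36.5%, with 18.2% higher and 18.2% lower. DESeq2 called 5 pairs, 1 of them TRBV13-2 with TRBJ1-3 (log2 ratio 0.45, DESeq2 adjusted p = 0.0465). This pair held 0.355% and 0.356% of the reads in WT mice, with 0.492% and 0.466% for Tet2/3 DKO, and edgeR gave it an adjusted p of 0.571. The largest TRBV13-2 clone of Tet2/3 DKO replicate 1 used this pair and alone held 0.111% of the reads of that library. Without Tet2/3 DKO replicate 1, edgeR called 8 TRBV13 pairs among 50 pairs in all, so that these calls rested on Tet2/3 DKO replicate 2.

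Pairs of these segments that were prominent among transferred cells, whose libraries were not analysed here, were examined as well. TRBV13-3 with TRBJ1-1 had a log2 ratio of -0.04 ± 0.22 (SE, edgeR adjusted p = 0.979). TRBV13-3 with TRBJ2-2 held 0.654% and 0.841% of the reads in WT mice, with 0.617% and 0.499% for Tet2/3 DKO, a log2 ratio of -0.42 ± 0.23 (edgeR adjusted p = 0.571). The ratio was -0.58 without Tet2/3 DKO replicate 1, and ran from -0.59 without WT replicate 1 to -0.23 without WT replicate 2. TRBV13-2 with TRBJ2-3 (-0.18 ± 0.24) and with TRBJ2-7 (-0.0005 ± 0.21) had adjusted p values of 0.930 and 0.998 in edgeR. As each library was left out, these ratios ran from -0.35 to -0.02 and from -0.06 to 0.07, and that of TRBV13-3 with TRBJ1-1 from -0.23 to 0.13.

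CDR3 loops of the members were mostly 12 to 15 residues long, counted from the conserved cysteine to the conserved phenylalanine. For TRBV13-1 the mean over in-frame reads was 13.65 and 13.68 residues in WT mice, with 13.69 and 13.52 for Tet2/3 DKO. For TRBV13-2 it was 13.75 and 13.72 in WT mice, with 13.7 and 13.7 for Tet2/3 DKO. TRBV13-3 averaged 13.74 and 13.67 residues in WT mice, with 13.79 and 13.71 for Tet2/3 DKO. Tet2/3 DKO replicate 2 had the lowest TRBV13-1 value. The difference of Tet2/3 DKO minus WT was -0.06 residues for TRBV13-1. Leaving out Tet2/3 DKO replicate 1 gave -0.14, and leaving out Tet2/3 DKO replicate 2 turned the sign, to 0.02. The difference was -0.04 for TRBV13-2 (-0.05 to -0.02 as each library was left out) and 0.05 for TRBV13-3 (0.0083 to 0.087). With each clone counted once, the TRBV13-3 difference turned to -0.01. Without the 10 largest clones of each segment, the TRBV13-2 difference was -0.07. The family exceeded all other TRBV segments by 0.057 ± 0.042 residues (SD, n = 4, higher in 4 of 4 libraries, exact sign-flip permutation p = 0.125). By member the excess was 0.0022 ± 0.011 residues for TRBV13-1 (higher in 2 of 4 libraries), 0.087 ± 0.067 for TRBV13-2 (4 of 4) and 0.094 ± 0.082 for TRBV13-3 (3 of 4). With each clone counted once it was 0.066 ± 0.029 for TRBV13-1, higher in 4 of 4 libraries.

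**Figure D3:**
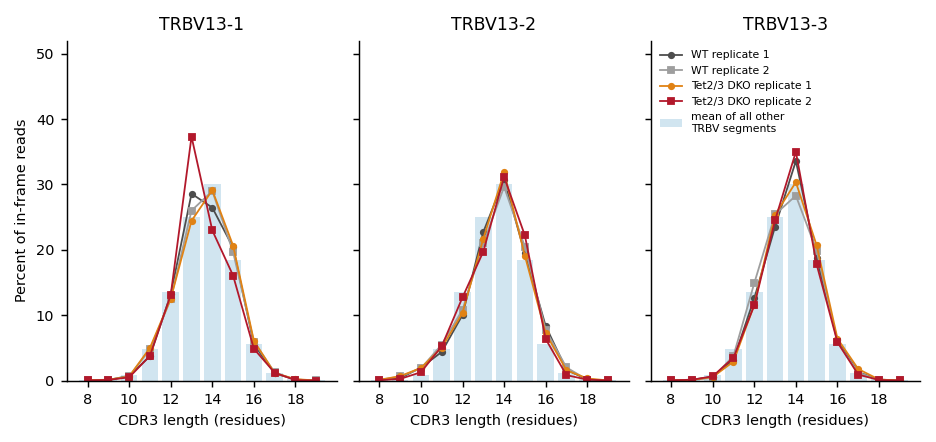
Lines give the percent of in-frame reads at each CDR3 length, in residues, for each TRBV13 segment and library, and bars the mean of all other TRBV segments. The most common length lies at 13 or 14 residues in every curve, and in Tet2/3 DKO replicate 2 TRBV13-1 reaches 37.3% at 13 residues and TRBV13-3 reaches 35.01% at 14.

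At the short end the members differed. CDR3s of up to 10 residues held 2.49% and 2.60% of in-frame TRBV13-2 reads in WT mice, with 2.81% and 1.59% for Tet2/3 DKO. In TRBV13-1 they held 0.873% and 0.768% in WT mice, with 0.826% and 0.632% for Tet2/3 DKO, and in TRBV13-3 0.734% and 0.564% in WT mice, with 0.742% and 0.821% for Tet2/3 DKO. The other TRBV segments together lay between 0.967% and 1.19%. TRBV13-2 was above the other members in each library, and the limit of 10 residues was chosen after the lengths were seen. CDR3s of 17 residues or more held 0.982% to 2.21% of the in-frame reads of each member.

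The members differed at the V end of the junction. TRBV13-2 lost the fewest V bases, a mean of 1.93 and 1.95 per in-frame read in WT mice, with 1.95 and 1.84 for Tet2/3 DKO. TRBV13-1 lost 2.39 and 2.31 in WT mice, with 2.36 and 2.003 for Tet2/3 DKO, and TRBV13-3 lost 2.54 and 2.64 in WT mice, with 2.56 and 2.55 for Tet2/3 DKO. This order, TRBV13-2 below TRBV13-1 below TRBV13-3, held in each of the 4 libraries. TRBV13-2 lost 0.65 ± 0.05 bases fewer than TRBV13-3 (SD, n = 4) and 0.35 ± 0.13 fewer than TRBV13-1, both with an exact sign-flip permutation p of 0.125. Against all other TRBV segments, TRBV13-2 was lower by 0.24 ± 0.07 bases and TRBV13-3 higher by 0.41 ± 0.06, in 4 of 4 libraries each.

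**Figure D4:**
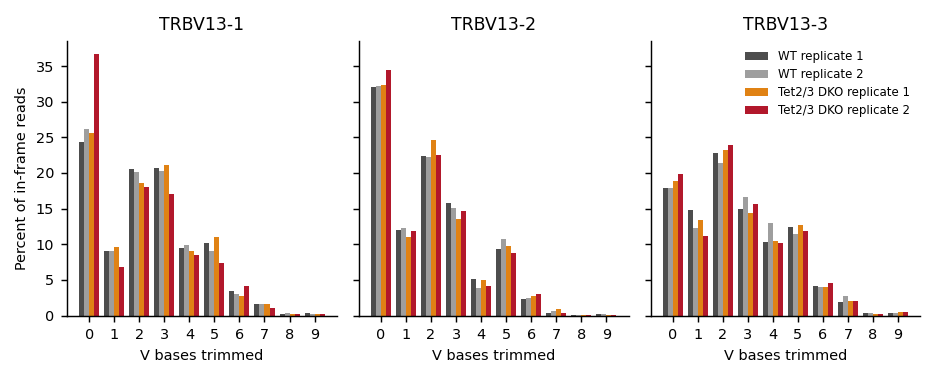
Bars give the percent of in-frame reads that lost the number of V bases on the horizontal axis, for each TRBV13 segment and library. TRBV13-2 kept its whole V end in 32.0% to 34.5% of reads and TRBV13-3 in 17.9% to 19.8%; TRBV13-1 lay between them except for 36.7% in Tet2/3 DKO replicate 2.

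The V end is carried into the residues of the loop. Reads that began with the germline residues CASGD were 53.7% and 52.6% of in-frame TRBV13-2 reads in WT mice, with 55.3% and 55.9% for Tet2/3 DKO. For CASSD, the shares were 39.5% and 40.6% of TRBV13-1 reads in WT mice, with 41.1% and 50.04% for Tet2/3 DKO. They were 41.1% and 37.2% of TRBV13-3 reads in WT mice, with 40.5% and 34.5% for Tet2/3 DKO. TRBV13-2 exceeded TRBV13-3 by 16.05 ± 3.75 points and TRBV13-1 by 11.6 ± 3.97 points, in 4 of 4 libraries each (exact sign-flip permutation p = 0.125). Glycine stood at residue 4 of the CDR3 in 96.1% ± 0.29 of in-frame TRBV13-2 reads (SD, n = 4), and serine in 88.6% ± 0.38 of TRBV13-1 and 83.3% ± 1.34 of TRBV13-3 reads. Arginine took that position in 6.36% ± 0.66 of TRBV13-1, 9.98% ± 1.25 of TRBV13-3 and 0.40% ± 0.08 of TRBV13-2 reads. The shares at residue 4 were not compared between the genotypes. Both Tet2/3 DKO libraries were above both WT libraries for CASSD in TRBV13-1 and CASGD in TRBV13-2 (exact permutation p = 0.333 each). The germline start did not overlap between the genotypes in these 2 of the 3 members, against a background of 41.7% of the 24 segments, in either direction. With each clone counted once, the CASGD difference was 0.54 points and the groups overlapped.

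Between the V and J bases lay a mean of 8.34 bases in TRBV13-2, 8.35 in TRBV13-1 and 8.68 in TRBV13-3. TRBV13-3 was the highest of the members in each of the 4 libraries, by 0.34 ± 0.18 over TRBV13-2 and by 0.33 ± 0.18 over TRBV13-1. Without the leading TRBV13-1 clone, TRBV13-1 in Tet2/3 DKO replicate 2 went from 7.95 to 8.74 bases, above the 8.54 of TRBV13-3 there. A D segment was called in 72.4% to 75.6% of in-frame TRBV13-3 reads, 68.0% to 72.4% of TRBV13-2 reads and 61.5% to 72.5% of TRBV13-1 reads, the lowest value again in Tet2/3 DKO replicate 2. Over the 3 members and 10 measures by reads, 8 of 30 values (26.7%) did not overlap between the genotypes, against a background of 34.2% over the same measures of all 24 segments. In 40 genotype tests over members and family the lowest exact permutation p was 0.333, the smallest possible, and the lowest adjusted p was 1.

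Nearly all TRBV13 reads were in frame without a stop codon. For TRBV13-1 the share was 98.4% and 98.3% in WT mice, with 98.0% and 98.3% for Tet2/3 DKO. For TRBV13-2 it was 98.9% and 98.9% in WT mice, with 98.6% and 98.9% for Tet2/3 DKO. TRBV13-3 had 98.1% and 98.0% in WT mice, with 98.3% and 98.2% for Tet2/3 DKO. The values lay within 1 point of each other over all members and libraries. For TRBV13-1 the difference of Tet2/3 DKO minus WT was -0.19 points by reads. It was -0.47 with each clone counted once and -0.39 without the 10 largest clones of each segment. The other TRBV segments together had 95.6% and 95.8% in WT mice, with 95.9% and 96.4% for Tet2/3 DKO. The family was above them by 2.45 ± 0.34 percentage points (SD, n = 4, higher in 4 of 4 libraries, exact sign-flip permutation p = 0.125, adjusted p = 0.246). TRBV13-2 ranked 1 by mean among the 24 segments, TRBV13-1 ranked 4 and TRBV13-3 ranked 5. Among reads for which a CDR3 was found, the family stood 1.76 points above the others and the ranks were 2, 7 and 3 for TRBV13-2, TRBV13-1 and TRBV13-3.

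The clones that were out of frame or held a stop codon numbered 996 in TRBV13-1, 513 in TRBV13-2 and 786 in TRBV13-3 over the 4 libraries. Their V ends were trimmed by 1.93 ± 0.14 bases in TRBV13-2, 2.43 ± 0.23 in TRBV13-1 and 2.73 ± 0.22 in TRBV13-3 (SD over 4 libraries, each clone counted once). In-frame clones of the same members had lost 1.95 ± 0.02, 2.37 ± 0.02 and 2.61 ± 0.03 bases, the same order. TRBJ2 segments were joined in 76.9% ± 3.34, 77.4% ± 3.19 and 78.0% ± 2.64 of the clones that were not in frame and in 73.5% ± 0.96, 71.5% ± 1.33 and 71.8% ± 0.87 of the in-frame clones (TRBV13-1, TRBV13-2 and TRBV13-3). With at least 2 reads per clone, the shares not in frame were 77.0% ± 4.61, 73.9% ± 8.30 and 73.2% ± 6.72, and this difference was not tested.

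The share held by the largest clones overlapped between the genotypes for each member, and the leading TRBV13 clone of the data was in Tet2/3 DKO replicate 2. The largest clones of each member in Tet2/3 DKO replicate 2 and in 1 WT library each are shown, so that their junctions can be compared. Bases that were aligned to neither the V nor the J segment are in capitals. Bases aligned to V can include palindromic additions after the V end, as in gatgca of the first sequence. They can also include a mismatch, as in the TRBV13-3 clone of Tet2/3 DKO replicate 2. There gctg stands in place of the germline gatg.
TRBV13-1 TRBJ2-5, Tet2/3 DKO replicate 2: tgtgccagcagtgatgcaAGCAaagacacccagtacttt
TRBV13-2 TRBJ2-2, Tet2/3 DKO replicate 2: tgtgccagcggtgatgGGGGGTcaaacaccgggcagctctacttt
TRBV13-3 TRBJ2-4, Tet2/3 DKO replicate 2: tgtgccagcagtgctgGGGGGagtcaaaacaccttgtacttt
TRBV13-1 TRBJ2-7, WT replicate 2: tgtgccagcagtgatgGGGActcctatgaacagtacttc
TRBV13-2 TRBJ2-5, WT replicate 1: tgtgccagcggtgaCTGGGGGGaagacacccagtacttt
TRBV13-3 TRBJ2-3, WT replicate 1: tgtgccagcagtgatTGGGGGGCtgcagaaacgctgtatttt

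The first of these, with the CDR3 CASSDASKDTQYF, held 9060 reads. That is 1.59% of the TCRβ reads of its library (95% Wilson interval 1.56% to 1.62%) and 15.4% of its TRBV13-1 reads, 8.81 times the next TRBV13-1 clone. It kept the whole V end and had no called D segment. With 55 further clones that share its V, J and CDR3 bases it came to 9642 reads. The other libraries had 0 such reads, which allows shares of up to 0.000821% in WT replicate 1, 0.000661% in WT replicate 2 and 0.000733% in Tet2/3 DKO replicate 1. These limits and the interval cover counting error only, since PCR copies are not independent molecules.

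Left out together with the clones of the same CDR3 bases, TRBV13-1 in Tet2/3 DKO replicate 2 moved towards the other libraries in several measures. The share of TRBJ2-5 went from 25.5% to 10.9% of TRBV13-1 reads, below the 13.7% to 14.2% of the other libraries. D calls went from 61.5% to 73.8%, CASSD starts from 50.04% to 40.1%, and the mean V trimming from 2.003 to 2.40 bases. The CASSD value then lay below both Tet2/3 DKO replicate 1 and WT replicate 2, so that the genotypes overlapped. Other measures moved away from the other libraries. The share of TRBV13-1 in the library went from 10.3% to 8.81%, and its in-frame share from 98.3% to 97.95%, each below every other library.

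The largest clone held 1.37% and 1.30% of TRBV13-1 reads in WT replicates 1 and 2 and 1.22% in Tet2/3 DKO replicate 1. For TRBV13-2 it held 2.12% and 0.662% in WT mice, with 1.72% and 3.03% for Tet2/3 DKO, and for TRBV13-3 2.40% and 1.47% in WT mice, with 0.528% and 3.96% for Tet2/3 DKO. Tet2/3 DKO replicate 2 was the highest for each member. All 12 of these clones were in frame. The 10 largest clones held 8.20% and 4.66% of TRBV13-1 reads in WT mice, with 4.03% and 24.4% for Tet2/3 DKO. They held 8.10% and 4.20% of TRBV13-2 reads in WT mice, with 4.23% and 13.8% for Tet2/3 DKO, and 5.05% and 5.97% of TRBV13-3 reads in WT mice, with 1.64% and 9.73% for Tet2/3 DKO. Tet2/3 DKO replicate 2 was thus above both WT libraries for each member, while Tet2/3 DKO replicate 1 was below both for TRBV13-1 and TRBV13-3 and between them for TRBV13-2. For the family the log2 ratio of Tet2/3 DKO over WT was 0.87 (exact permutation p = 1), and -0.86 without Tet2/3 DKO replicate 2.

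**Figure D5:**
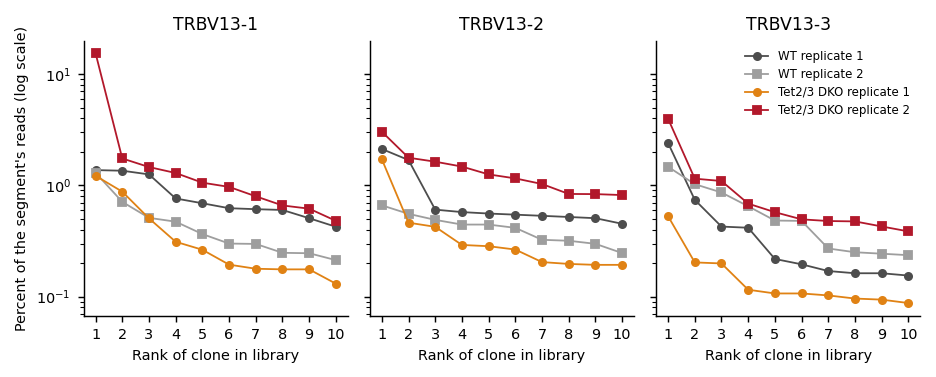
Points give the 10 largest clones of each TRBV13 segment in each library, ordered by rank, as percent of the segment's reads on a log scale. Tet2/3 DKO replicate 2 is at the top in each panel, and its first TRBV13-1 clone reaches 15.4%.

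Counted from the largest clone down, the clones that held 50% of the reads were 9.52% of the TRBV13-1 clones, 9.74% of the TRBV13-2 clones and 16.2% of the TRBV13-3 clones in Tet2/3 DKO replicate 2. In the other libraries they were 17.2% to 21.6%, 18.0% to 22.0% and 19.1% to 22.7%.

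By their CDR3 bases, most leading clones were seen in their own library alone. The WT replicate 1 clone of TRBV13-2 with TRBJ2-5, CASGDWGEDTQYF, held 500 reads there with the same CDR3 bases, 3 in WT replicate 2, 0 in Tet2/3 DKO replicate 1 and 280 in Tet2/3 DKO replicate 2. The WT replicate 2 clone of TRBV13-1 with TRBJ2-7, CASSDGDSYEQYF, held 625 reads there, 22 in WT replicate 1 and 19 in Tet2/3 DKO replicate 2. The third clone seen elsewhere by its bases was the TRBV13-1 clone of WT replicate 1, with 555 reads there and 4 in Tet2/3 DKO replicate 1. The other 9 leading clones had 0 reads with the same bases in the remaining libraries. Some of them were seen elsewhere by CDR3 residues. The TRBV13-3 clone of Tet2/3 DKO replicate 2 had 4 and 20 such reads in WT replicates 1 and 2. The TRBV13-2 clones of Tet2/3 DKO replicates 1 and 2 each had 1 in WT replicate 2, and the former had 4 in Tet2/3 DKO replicate 2. Whether reads passed between libraries in preparation or sequencing was not tested.

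By V, J and CDR3 residues, 235 of 23125 in-frame TRBV13-1 clonotypes (1.02%), 204 of 18459 TRBV13-2 clonotypes (1.11%) and 277 of 26257 TRBV13-3 clonotypes (1.05%) were found in 4 of 4 libraries. For all other TRBV segments the figure was 1.13%. Of the TRBV13-1 clonotypes 20204 were found in a single library, as were 16032 TRBV13-2 and 22849 TRBV13-3 clonotypes. The clonotypes in 4 libraries took 5.93% to 9.46% of the in-frame reads of TRBV13-1, 7.47% to 9.39% of TRBV13-2 and 6.73% to 8.04% of TRBV13-3. Pairs of libraries shared 778 to 933 TRBV13-1, 673 to 808 TRBV13-2 and 881 to 1166 TRBV13-3 clonotypes, counts that also follow the number of clonotypes in each library.

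The clonotypes found in each library had short joints. In TRBV13-2, 5.08 ± 3.62 bases (SD over clonotypes) lay between V and J in clonotypes of 4 libraries and 9.60 ± 3.99 in those of a single library. The values were 5.91 ± 3.87 and 9.72 ± 3.98 in TRBV13-1 and 6.46 ± 3.403 and 9.81 ± 3.97 in TRBV13-3. CASGD began 74.5% of the TRBV13-2 clonotypes of 4 libraries and 45.9% of those of a single library. For CASSD the shares were 54.9% and 36.5% in TRBV13-1 and 58.5% and 33.5% in TRBV13-3. A clonotype of 4 libraries was encoded by 4.40 (TRBV13-1), 5.04 (TRBV13-2) and 4.29 (TRBV13-3) CDR3 base sequences on average, and one of a single library by 1.03. These are descriptions without a test, since clonotypes with more reads are also more likely to be found in several libraries.

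The clonotypes with the largest share in the library where they were rarest are shown for each member (for TRBV13-3, 1 of a tied pair), with the bases that most reads carried.
TRBV13-1 TRBJ1-4: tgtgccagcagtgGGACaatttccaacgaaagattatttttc
TRBV13-2 TRBJ2-7: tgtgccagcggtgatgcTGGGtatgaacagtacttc
TRBV13-3 TRBJ1-2: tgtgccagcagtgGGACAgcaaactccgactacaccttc

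TRBV13-2 with TRBJ2-7 and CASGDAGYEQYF held 51 and 43 reads in WT mice, with 41 and 119 for Tet2/3 DKO, at least 0.139% of TRBV13-2 reads in each library. It was encoded by 11 base sequences, and the printed one held 31.9% of its reads. TRBV13-1 with TRBJ1-4 and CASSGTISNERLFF held 24 and 100 reads in WT mice, with 37 and 34 for Tet2/3 DKO, all with the same bases. The TRBV13-3 clonotype with TRBJ1-2 held 44 and 52 reads in WT mice, with 36 and 34 for Tet2/3 DKO, from 5 base sequences. Its lowest share, 0.064% of TRBV13-3 reads, was equal to that of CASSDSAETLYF with TRBJ2-3, since each had 34 reads in Tet2/3 DKO replicate 2. Next in TRBV13-2 came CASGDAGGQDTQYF with TRBJ2-5 and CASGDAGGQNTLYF with TRBJ2-4. In TRBV13-1 they were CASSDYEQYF and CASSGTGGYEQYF, both with TRBJ2-7, and in TRBV13-3 that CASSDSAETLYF clonotype and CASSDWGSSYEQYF with TRBJ2-7. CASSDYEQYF had 0 bases between V and J in its most frequent form. Each of these 9 clonotypes was present in both genotypes, at 17 to 119 reads per library.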

How the data were processed

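TCRβ libraries were made by the authors from RNA of the sorted cells by 5′ RACE, sequenced, trimmed with fastp 0.21.0 and assembled into clones with MiXCR, which assigned V, D and J segments. The deposited tables give, for each clone of a library, a read count and the fraction of that library's reads. The fraction served only as a check and equalled the share of the counts. The TCRα tables were not used here. Clones, which are distinct sequences from FR1 to FR4, were kept as deposited. Clones without a covered CDR3, 0.0377% to 0.866% of a member's reads, stayed in the denominators of shares.

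Single values were compared with two-sided exact permutation tests, in which the genotype labels can be assigned in 6 ways, or within libraries by sign-flip permutation over 4 libraries. Reads per TRBV segment and V-J pair (at least 10 reads in total, scaled by total TCRβ reads) were tested with edgeR 4.0.16 (quasi-likelihood, Benjamini-Hochberg, threshold 0.05), with DESeq2 1.42.0 as an alternative, after tests on simulated data. P-values measure only the spread between these libraries. Libraries were not paired by replicate number in the main tests, and whether equal numbers share an origin could not be settled. V and J ends are those MiXCR aligned. Palindromic additions counted as 0 bases trimmed, and those after the V end counted as V bases, not as bases between V and J. Python 3.11.15, pandas 2.3.3, numpy 2.4.6 and scipy 1.17.1 were used. Named items were the 3 members, their TRBV12 neighbours, the most and least used J of each member, pairs prominent among transferred cells, the largest clone of each member per library and for each member the 3 clonotypes with the largest share in the library where they were rarest. Members, lists and this rule were chosen with earlier results of these data known.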

Additional observations from a re-analysis of the deposited data

How the results depend on the processing

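Of 392 alternative values for 40 single results, 364 moved by less than the spread between replicates and 33 turned sign, 28 of them in differences between the genotypes. The 392 include values with 1 library left out. Except for log2 ratios, leaving out 1 library could not move a value by more than this spread. The count of 364 is therefore no measure of stability. Between the genotypes, the family's in-frame difference (Tet2/3 DKO minus WT) was -0.021 percentage points by reads, -0.134 by clones and -0.1426 among clones with a CDR3. The difference in V trimming was -0.0017 bases with each clone counted once, against -0.10. The log2 ratio of the 10 largest clones ranged from -0.86 to 1.63 with each library left out in turn. The family's in-frame excess over other segments, 2.45 points, was 2.99 with each clone counted once and 1.76 among clones with a CDR3. Among differences that separated the genotypes or had the same sign in 4 of 4 libraries, the TRBV13-3 in-frame difference between genotypes turned to -0.00844 points among clones with a CDR3, and the TRBJ2 share of TRBV13-2 against other segments turned to 0.19 points without the 10 largest clones of each segment. The cause was not tested. edgeR called 0 segments and 0 pairs; with DESeq2 there were 3 segments and 5 pairs. With each library left out in turn, 0 to 8 segments and 0 to 50 pairs were called, the highest without Tet2/3 DKO replicate 1, and 4 pairs without WT replicate 2; the lone library is then assumed to vary like the other genotype. With replicate number as a block, 0 segments and 2 pairs were called, no TRBV13 pair among them. Deviations of equal replicate numbers correlated at 0.18 over segments and -0.05 over pairs. With 2 libraries per genotype, unequal numbers give the same values with the sign turned. These correlations therefore cannot decide whether equal numbers share an origin. Clonotypes of the members in 4 libraries numbered 716, and 164 by CDR3 bases. All other alternatives for the counts of calls gave 0. Only 2 libraries per genotype and reads without molecular identifiers limit the precision.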
